A study of Mus musculus with 12 samples.

Results

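The clustered histone genes are the histone genes of mouse that lie side by side in a few clusters and carry symbols beginning Hist1h to Hist4h. They were taken as the rows of both count tables with such a symbol and at least 10 counts over the 12 libraries, which gave 66 of 67 such rows, among 31017 genes in all. By histone class they were 6 H1, 17 H2A, 18 H2B, 12 H3 and 13 H4 genes. In the GENCODE M21 annotation of mm10, 53 lie in the Hist1 cluster (chromosome 13, 21715763 to 23934156), 10 in the Hist2 cluster (chromosome 3, 96219865 to 96270132), 2 are Hist3 genes on chromosome 11, and Hist4h4 lies alone on chromosome 6. RNA was measured by sequencing polyadenylated RNA of 4T1 cells, an established mouse mammary carcinoma line, in 6 groups of 2 libraries. The cells were control cells (pools of clones given a control sgRNA) and knockout clones 1 and 2, each a single clone made with Cas9 and an sgRNA against Etv4, a gene for an ETS transcription factor. Cultures were on plastic (2D) or inside gels of collagen I (3D) at one of 2 concentrations, and which 3D library had which concentration is not given in the sources used here. RNA of the 3D cells alone was taken after a collagenase digest of the gel, so format, digestion and count table cannot be told apart.

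Libraries held 12.3 to 18.7 M counts in 2D and 26.5 to 33.2 M in 3D, with 64 or 65 of the 66 histone genes detected per 2D library and 59 to 62 per 3D library. The targeted gene Etv4 ran from 46.0 to 49.8 counts per M (CPM) over the 4 clone libraries in 2D, below the 76.0 and 78.1 of control. Over the 4 clone libraries in 3D it ran from 69.1 to 91.5 CPM, below the 94.7 and 99.4 of control. A count of the whole gene checks a small deletion little. Etv4 lies on chromosome 11, and with chromosomes centred on their own medians its call in clone 1 in 3D was lost (adjusted p = 0.976). Epithelial markers, 8 of 8 detected, summed to 3762 to 5017 CPM in 2D and 3037 to 3486 in 3D. Leukocyte markers (5 of 7 detected in either format) summed to 1.75 to 5.40 CPM in 2D and 7.77 to 11.6 in 3D, fibroblast markers (3 and 4 of 7) to 4.11 to 7.39 and 19.9 to 23.8, and endothelial markers (4 and 6 of 6) to 8.68 to 14.9 and 3.53 to 5.86. The largest value of any 1 gene in a library was 10.3 CPM for leukocyte, 23.2 for fibroblast and 14.5 for endothelial markers. The largest sums of these lists were 11.6, 23.8 and 14.9 CPM, so 1 gene can make up most of such a sum. Whether other cell types were present, and any part of them in the histone values, was not tested. The labels do not say whether the 2 libraries of a group came from cultures of their own, so each p-value speaks only of the spread between these libraries.

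Core histones H2A, H2B, H3 and H4 form the protein core around which DNA is wound in the nucleosome, and linker histone H1 binds the DNA that enters and leaves it. The clustered genes are the replication-dependent ones: their mRNA rises in S phase, when new DNA must be packed, and falls when replication stops. Most of their transcripts end, without a poly(A) tail, just past a short stem-loop that is bound by SLBP. Polyadenylated forms of the same genes also exist, and these libraries were made from polyadenylated RNA. Amounts per gene below are therefore amounts of what that selection kept, and how they relate to the stem-loop form was not measured.

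A stem-loop was searched in the annotated transcripts after the stop codon with a pattern of 16 bases whose stem arms pair, and was found for 46 of the 66 genes. For 12 of the others the gene model ends at the stop codon, so the letters past it were not seen. Each of the 8 forms found is shown by the gene of that form with the highest mean CPM. The pattern itself fixes some of the 16 bases and the pairing, so forms outside it could not be found. Capitals mark the 16 bases of the stem-loop, the sequences are from GENCODE M21 transcripts, and positions are those of the capitals in mm10.
Hist1h1e (chromosome 13, 23621782 to 23621797, minus strand): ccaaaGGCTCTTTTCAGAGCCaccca
Hist1h4d (chromosome 13, 23581950 to 23581965, plus strand): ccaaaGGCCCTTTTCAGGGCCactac
Hist1h3f (chromosome 13, 23544932 to 23544947, plus strand): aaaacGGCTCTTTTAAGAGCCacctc
Hist1h4j (chromosome 13, 21735437 to 21735452, plus strand): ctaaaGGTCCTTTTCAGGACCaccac
Hist2h4 (chromosome 3, 96262939 to 96262954, minus strand): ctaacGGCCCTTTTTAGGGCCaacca
Hist1h3g (chromosome 13, 23535889 to 23535904, plus strand): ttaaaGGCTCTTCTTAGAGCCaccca
Hist1h4a (chromosome 13, 23760800 to 23760815, minus strand): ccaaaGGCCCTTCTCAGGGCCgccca
Hist2h2ac (chromosome 3, 96220418 to 96220433, minus strand): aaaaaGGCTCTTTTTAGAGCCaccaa
The form of Hist1h1e was shared by 26 genes (3 H1, 10 H2A, 8 H2B and 5 H3) and that of Hist1h3f by 6 (1 H1, 2 H2B and 3 H3). The form of Hist1h4d was found in 7 genes, those of Hist1h4j and Hist2h4 in 2 each, and that of Hist1h4a in 1, and each of these 12 genes was an H4 gene.

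Promoters were taken from RefSeq (GRCm38.p6), which matched 60 of the 66 genes. In the 150 bases before the start, CCAAT (either strand, so ATTGG too) was in 49 of the 60 (81.7%), against 25.3% of 27025 promoters of the same length. TATAAA (either strand, so TTTATA too) was in 23 of 60 (38.3%), against 8.08% of all promoters. By class CCAAT was in 6 of 6 H1, 16 of 16 H2A, 16 of 16 H2B and 8 of 10 H3 promoters but in 3 of 12 H4 promoters. Windows of some neighbouring H2A and H2B genes on opposite strands overlap, as for Hist1h2ae and Hist1h2bg, so 1 match can count for both. For the matched gene with the highest mean CPM in each class, the 120 bases before the start are shown on the gene's strand, with CCAAT and TATAAA of either strand in capitals.
Hist1h1e (chromosome 13, 23622559 to 23622678, minus strand): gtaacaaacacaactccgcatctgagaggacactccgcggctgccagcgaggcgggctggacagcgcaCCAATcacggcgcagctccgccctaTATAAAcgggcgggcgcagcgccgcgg
Hist2h2ac (chromosome 3, 96220881 to 96221000, minus strand): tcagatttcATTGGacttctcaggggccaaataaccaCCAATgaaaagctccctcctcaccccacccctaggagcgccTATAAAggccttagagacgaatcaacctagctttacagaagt
Hist1h2bb (chromosome 13, 23746614 to 23746733, plus strand): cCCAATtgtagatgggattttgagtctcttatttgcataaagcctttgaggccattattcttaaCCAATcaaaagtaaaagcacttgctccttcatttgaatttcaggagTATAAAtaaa
Hist1h3e (chromosome 13, 23562386 to 23562505, minus strand): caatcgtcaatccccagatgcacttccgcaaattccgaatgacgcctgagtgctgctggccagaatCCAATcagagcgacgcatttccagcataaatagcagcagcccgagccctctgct
Hist1h4d (chromosome 13, 23581448 to 23581567, plus strand): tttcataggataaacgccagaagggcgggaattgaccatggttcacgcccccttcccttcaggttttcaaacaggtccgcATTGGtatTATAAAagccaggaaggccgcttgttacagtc
In the H4 promoter shown, the CCAAT match is on the strand opposite to the gene. A match is a description of letters in this window and not a site shown to be bound.

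Histone genes of one class are near-copies of each other, which limits what a count of one gene can mean. Of the 66 genes, 30 shared at least 50% of their 50-base words of exon sequence with a gene at another locus, and 5 shared none. H2A genes shared most, with a median of 78.9% and 12 of 17 genes at 50% or more, and H1 genes least, with a median of 1.13% and 0 of 6. How reads that fit several copies were counted is not given in the sources used here, so values of the near-copies are uncertain as single genes. Sums of a class are less affected if such reads were shared out among the copies. If such reads were left out, they are missing from the sums too. Hist1h2ao, Hist1h2ap and Hist1h2bq, with mean levels of 0.348, 0.249 and 0.598 CPM, and Hist1h4m, with 0.785 CPM, share 89.8 to 97.3% of their words with 1 other gene. Exons of 23 genes overlap another annotated gene, each of the 17 H2A genes in some part on the opposite strand, and those values are uncertain too where the counting did not use strand.

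The 3 genes with the highest mean CPM over the 12 libraries were Hist1h1e, Hist1h1c and Hist1h1d among H1 genes (591, 502 and 433 CPM) and Hist2h2ac, Hist1h2ak and Hist1h2ab among H2A genes (363, 207 and 133). Among H2B genes they were Hist1h2bb, Hist2h2bb and Hist1h2bk (263, 242 and 217 CPM), among H3 genes Hist1h3f, Hist1h3e and Hist1h3c (384, 329 and 176), and among H4 genes Hist1h4d, Hist1h4h and Hist1h4f (426, 332 and 228). Per kb of exon length the H4 genes Hist1h4k and Hist1h4h (709 and 706 CPM per kb) and the H2A gene Hist2h2ac (699) led, and Hist1h1e stood at 306. At the low end, Hist1h1t, the H1 of testis, was at 0 counts in every 2D library and at up to 0.280 CPM in 3D. Hist1h2ba, the H2B of testis, did not pass 0.163 CPM in any library. These 2 genes and Hist1h2br were removed by the filter on low counts, so 63 genes were tested.

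Summed over a class and TMM-scaled, each class was higher in both clones than in control in 2D and lower in 3D than in 2D, except that with scaling by library size alone H1 in clone 2 in 2D overlapped control (2167 and 2195 CPM against 2173 and 2130). For all 66 genes the 2D sums were 11724 and 11299 CPM for control, 15062 and 13994 for clone 1, and 13197 and 13839 for clone 2. Each clone library in 2D was above both control libraries. For the 3D libraries they were 4672 and 5101 CPM (control), 5140 and 4958 (clone 1), and 4227 and 4325 (clone 2). There clone 2 lay below both control libraries, while clone 1 overlapped the range of control. Against control in 2D the mean sum was 1.26-fold higher in clone 1 and 1.17-fold in clone 2, and in 3D the ratio was 1.03 in clone 1 and 0.875 in clone 2. With scaling by library size alone these 4 ratios were 1.23, 1.12, 0.976 and 0.913, so that of clone 1 in 3D changed side. In bulk RNA, fewer cells in S phase and less histone RNA per cell cannot be told apart.

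**Figure D1:**
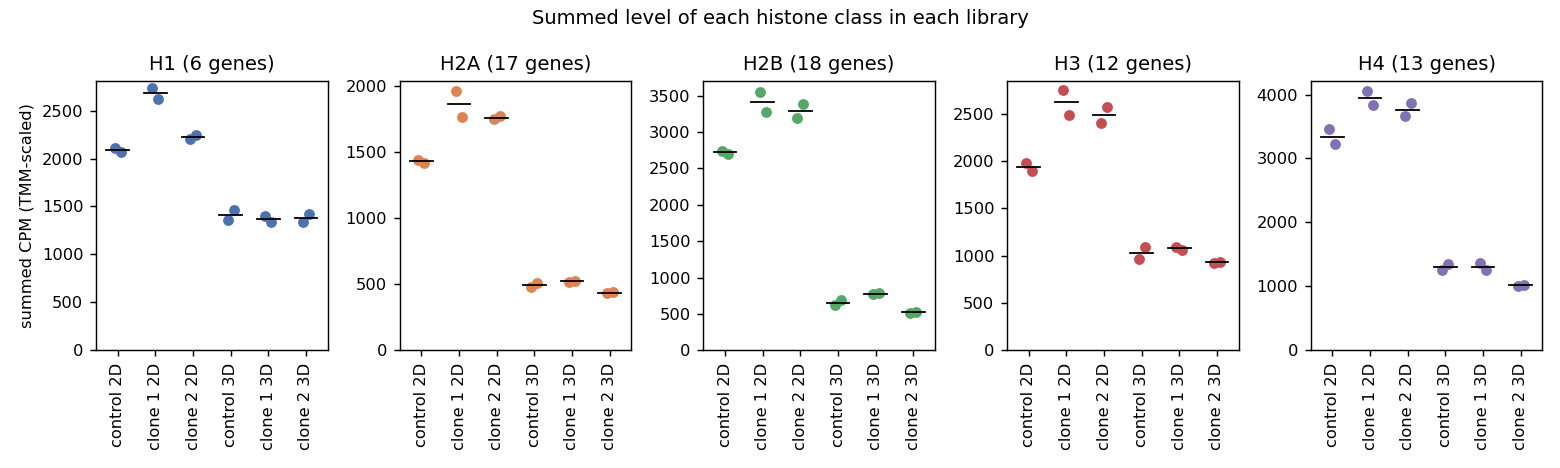
Summed counts per M of the histone genes of each class (vertical axis, TMM-scaled) in each group (horizontal axis), with 1 point per library and a line at the mean of the 2 libraries. With this scaling the 2D clone libraries lie above the 2D control libraries in each panel, which for H1 in clone 2 does not hold when scaled by library size alone, and all 3D libraries lie below all 2D libraries.

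Clone 1 against control in 2D asks how histone RNA of an Etv4-targeted clone differs from that of the pooled control on plastic, where the targeting and other traits of a single clone cannot be told apart. Of 63 histone genes tested, 44 were higher in clone 1 and 0 lower, at a Benjamini-Hochberg adjusted p under 0.05 over 13763 genes in edgeR's quasi-likelihood test. The background was 19.7% of all genes tested higher and 19.9% lower, 39.6% in either direction. At an unadjusted p under 0.05 edgeR still had 0 lower, with 47 higher, and DESeq2 had 44 higher and 0 lower. The median log2 change was 0.35 over the histone genes and 0.00 over all genes. By class, 4 of 5 H1 genes, 11 of 17 H2A, 11 of 16 H2B, 10 of 12 H3 and 8 of 13 H4 genes were higher. In the chromosome 13 cluster 41 of 50 genes were higher, and in the other clusters 3 of 13, a difference that was not tested. The rise of Hist1h2bq, at a mean of 0.598 CPM, was larger than the others but rested on 1.68 and 1.53 CPM against 0.769 and 0.067. The other chromosome 13 genes had a median of 0.00 on the log2 scale, with 79 higher and 77 lower of 516, and the 25 other genes within 1 Mb of the cluster had 4 higher and 3 lower.

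Among genes of at least 5 CPM, the largest rise in clone 1 in 2D was that of the H4 gene Hist1h4i (ENSMUSG00000060639, chromosome 13, 22040636 to 22041362, minus strand). Control libraries had 171 and 169 CPM of it and those of clone 1 had 303 and 274, with no overlap between the groups. Its log2 change was 0.77 ± 0.06 (SE, adjusted p = 7.7e-11, edgeR). The H2A gene Hist1h2ag was at 43.6 and 36.4 CPM in control and 67.0 and 58.1 in clone 1, a change of 0.65 ± 0.10 (adjusted p = 1.1e-05), and 78.9% of its words are shared with other copies. The H2B gene Hist1h2bp was at 34.2 and 30.8 CPM in control and 50.7 and 47.2 in clone 1, a change of 0.59 ± 0.10 (adjusted p = 2.6e-05). Linker histones, which share least sequence, moved the same way: Hist1h1c, at 546 and 520 CPM in control and 755 and 674 in clone 1, rose by 0.42 ± 0.06. Hist1h1d rose by 0.37 ± 0.05 and Hist1h1e, at 612 and 604 CPM in control and 698 and 739 in clone 1, by 0.24 ± 0.05. Outside chromosome 13, Hist2h2ac, Hist2h2ab and Hist2h3b rose by 0.30, 0.51 and 0.46, while Hist4h4 was at -0.02 (adjusted p = 0.845), Hist2h4 at 0.20 (0.0997) and Hist2h2bb at 0.08 (0.299).

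Clone 2 in 2D gave a like count of higher genes but a different order of them. Both clones were set against the same control libraries, so their 2 lists are not independent. In clone 2, 36 of 63 histone genes were higher and 2 lower, against 18.8% and 14.9% of all genes (33.7% either way), and the median log2 change was 0.24 against 0.02. Called higher were 2 of 5 H1 genes, 9 of 17 H2A, 11 of 16 H2B, 9 of 12 H3 and 5 of 13 H4 genes. The H4 gene Hist2h4 on chromosome 3 (96261682 to 96263311) led, at 223 and 187 CPM in control and 313 and 350 in clone 2. Its change was 0.69 ± 0.09 (adjusted p = 1.5e-05), and it shares 1.01% of its words with other loci. The H3 gene Hist1h3g followed, at 118 and 119 CPM in control and 163 and 188 in clone 2, a change of 0.56 ± 0.08 (adjusted p = 3.3e-06). Hist2h2ab, an H2A gene of which 68.2% lies opposite Gm15444, was at 26.3 and 30.4 CPM in control and 40.0 and 42.0 in clone 2, a change of 0.53 ± 0.11. The 2 lower genes were both H1 genes. Hist1h1e fell by 0.20 ± 0.05 (adjusted p = 0.0031), from 612 and 604 CPM to 536 and 520. Hist1h1a, at 3.70 and 1.01 CPM in control and 0.759 and 0.925 in clone 2, had a change of -1.49 (adjusted p = 0.028), with its control libraries far apart. Hist1h1c rose in clone 2 by 0.33 ± 0.06, so the H1 genes of highest CPM went opposite ways.

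Leaving out histone genes whose exons overlap another gene, 40 were tested. In 2D, 29 of these were higher and 0 lower in clone 1, and 24 higher and 1 lower in clone 2. Of all genes, 19.7% were higher and 19.9% lower in clone 1, and 18.8% and 14.9% in clone 2.

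The clones were also compared with each other in 2D. Clone 2 was higher than clone 1 in 4 histone genes and lower in 18 of 63, against 23.2% and 18.4% of all genes (41.6% either way), with a median log2 change of -0.12. Without clone 1 replicate 1 in 2D, whose summed histone level of 15062 CPM was above the 13994 of replicate 2, the counts were 5 and 9. Hist1h4i (-0.46 ± 0.06), Hist1h1e (-0.44 ± 0.05) and Hist1h4a (-0.35 ± 0.06) were furthest below clone 1, and Hist2h4 was furthest above it (0.49 ± 0.09). Hist2h2bb and Hist4h4 were higher in clone 2 by 0.30 and 0.23, the latter not past the test without clone 1 replicate 2 in 2D (adjusted p = 0.0768). Other genes of chromosomes 3 and 6, where these 2 lie, had medians of 0.23 and 0.27 in the same comparison. With each chromosome centred on its own median, Hist2h2bb was at 0.08 (adjusted p = 0.326) and Hist4h4 at -0.06 (0.551).

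**Figure D2:**
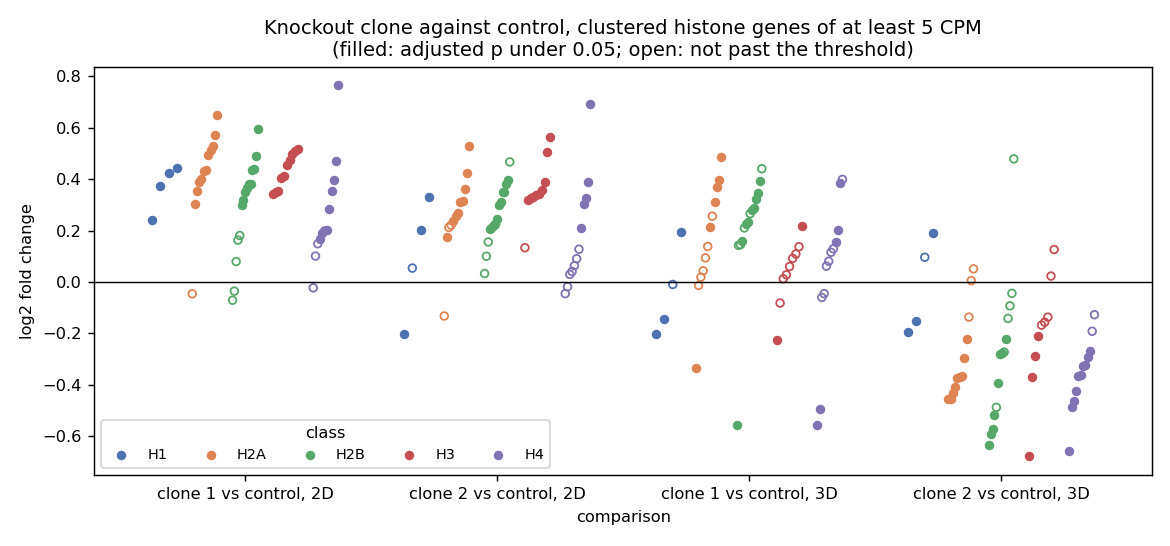
Log2 fold change of each histone gene of at least 5 CPM (vertical axis) in the 4 comparisons of a clone with control (horizontal axis), coloured by class, with filled points past an adjusted p of 0.05 and genes at 0 in 3D left out there. Most points lie above 0 in both 2D comparisons, while in 3D clone 2 lies mostly below 0 and clone 1 on both sides.

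In 3D the histone genes split between the clones. Clone 1 against control in 3D had 18 of 63 higher and 7 lower, against 22% and 23% of all genes (45% either way), with medians of 0.13 and 0.00. That share of higher calls is near the background. Without control replicate 1 in 3D the counts were 6 and 6, and without clone 1 replicate 1 in 3D they were 11 and 5. H2B genes made up 8 of the 18, of 16 tested, and H2A genes 5 of 17. The H2A genes Hist1h2af and Hist1h2ab and the H2B gene Hist1h2bk were highest. Hist1h2af was at 47.9 and 52.0 CPM in control and 65.6 and 74.1 in clone 1, a change of 0.48 ± 0.09 (adjusted p = 9.4e-05). Hist1h2ab was at 28.0 and 31.6 CPM in control and 41.0 and 37.7 in clone 1, a change of 0.40 ± 0.08. Hist1h2bk was at 74.6 and 91.9 CPM in control and 111 and 108 in clone 1, a change of 0.39 ± 0.07, and of 0.24 without control replicate 1 in 3D. The control libraries were thus further apart than the clone libraries for this gene.

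The genes that were lower in clone 1 in 3D were led by those outside chromosome 13. Of the 13 tested there, 0 were higher and 4 lower, against 22% and 23% of all genes. That difference from all genes was not tested. Hist2h4 was at 107 and 130 CPM in control and 83.7 and 77.6 in clone 1, a change of -0.56 ± 0.09 (adjusted p = 9.5e-05). Hist4h4, the H4 gene that lies alone, was at 71.3 and 85.5 CPM in control and 57.7 and 53.6 in clone 1, a change of -0.50 ± 0.07 (adjusted p = 4.3e-06). Hist2h2ac fell by 0.34 ± 0.05, from 179 and 176 CPM to 141 and 140, and by 0.17 with chromosomes centred. Hist3h2ba, an H2B gene of chromosome 11, was at 3.25 and 3.62 CPM in control and 2.20 and 2.45 in clone 1, a change of -0.56 ± 0.20 (adjusted p = 0.025). Other genes of chromosome 11 had a median of -0.43 in the same comparison, and with chromosomes centred Hist3h2ba was at -0.08 (adjusted p = 0.805). Over all its alternatives the adjusted p of Hist3h2ba ran from 0.0056 to 0.805, and the call was also lost without either control library, either clone 1 library in 3D, or with DESeq2.

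Clone 2 against control in 3D had 2 of 63 histone genes higher and 33 lower, against 11.8% and 17.4% of all genes (29.2% either way). The median log2 change was -0.22 over the histone genes and 0.00 over all genes. Lower were 2 of 5 H1 genes, 9 of 17 H2A, 8 of 16 H2B, 4 of 12 H3 and 10 of 13 H4 genes. Without control replicate 2 in 3D the counts were 2 and 20, and without clone 2 replicate 1 in 3D they were 1 and 22. The H3 gene Hist1h3d was at 71.0 and 79.8 CPM in control and 49.2 and 45.0 in clone 2, a change of -0.68 ± 0.08 (adjusted p = 7.7e-08). Hist4h4 was at 49.3 and 50.05 CPM in clone 2, a change of -0.66 ± 0.07 (adjusted p = 1.2e-07). The H2B gene Hist1h2bf was at 20.4 and 21.2 CPM in control and 13.6 and 13.1 in clone 2, a change of -0.64 ± 0.11 (adjusted p = 3.2e-05). In these 3 genes both clone 2 libraries lay below both control libraries. Of the 32 lower genes on chromosome 13, Hist1h4d fell by 0.42 ± 0.05, from 293 and 314 CPM to 224 and 228. Other genes of chromosome 13 had a median of -0.09 there, with 25 higher and 110 lower of 516, and with chromosomes centred the median of the histone genes was -0.14.

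The 2 genes that were higher in clone 2 in 3D were Hist1h1c and Hist3h2a. Hist1h1c was at 345 and 381 CPM in control and 398 and 432 in clone 2, a change of 0.19 ± 0.06 (adjusted p = 0.018), and over its alternatives the adjusted p ran from 9.2e-06 to 0.314. It did not pass without control replicate 1 in 3D (0.314) and without clone 2 replicate 2 in 3D (0.271). Hist3h2a, an H2A gene of chromosome 11, was at 2.48 and 3.04 CPM in control and 4.51 and 4.67 in clone 2, a change of 0.73 ± 0.20 (adjusted p = 0.0071). It did not pass without replicate 1 of control in 3D (adjusted p = 0.131) or either clone 2 library in 3D (0.0527 and 0.0723), and a same-strand gene covers 33.0% of its exons. Hist1h1e fell by 0.20 ± 0.05 in clone 2 in 3D (adjusted p = 0.0037), a call lost without control replicate 2 (0.0912) or clone 2 replicate 1 (0.087) in 3D and with chromosomes centred (0.446).

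Directly compared in 3D, clone 2 was higher than clone 1 in 6 histone genes and lower in 39 of 63, against 26.4% and 28.4% of all genes (54.8% either way), with a median of -0.38. Hist1h2bk was at 54.2 and 56.3 CPM in clone 2 against 111 and 108 in clone 1, a difference of -0.98 ± 0.07 (adjusted p = 1.4e-11). Hist1h2bf (-0.85 ± 0.10) and Hist1h2bm (-0.80 ± 0.06) followed, so the 3 largest differences were in H2B genes. The 6 on the other side held 2 H1 genes, and Hist2h4 (0.43 ± 0.09), Hist1h1c (0.39 ± 0.06) and Hist2h2ac (0.39 ± 0.05) were furthest above clone 1 among genes of at least 5 CPM. With chromosomes centred the adjusted p of Hist2h4 here was 0.0685.

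**Figure D3:**
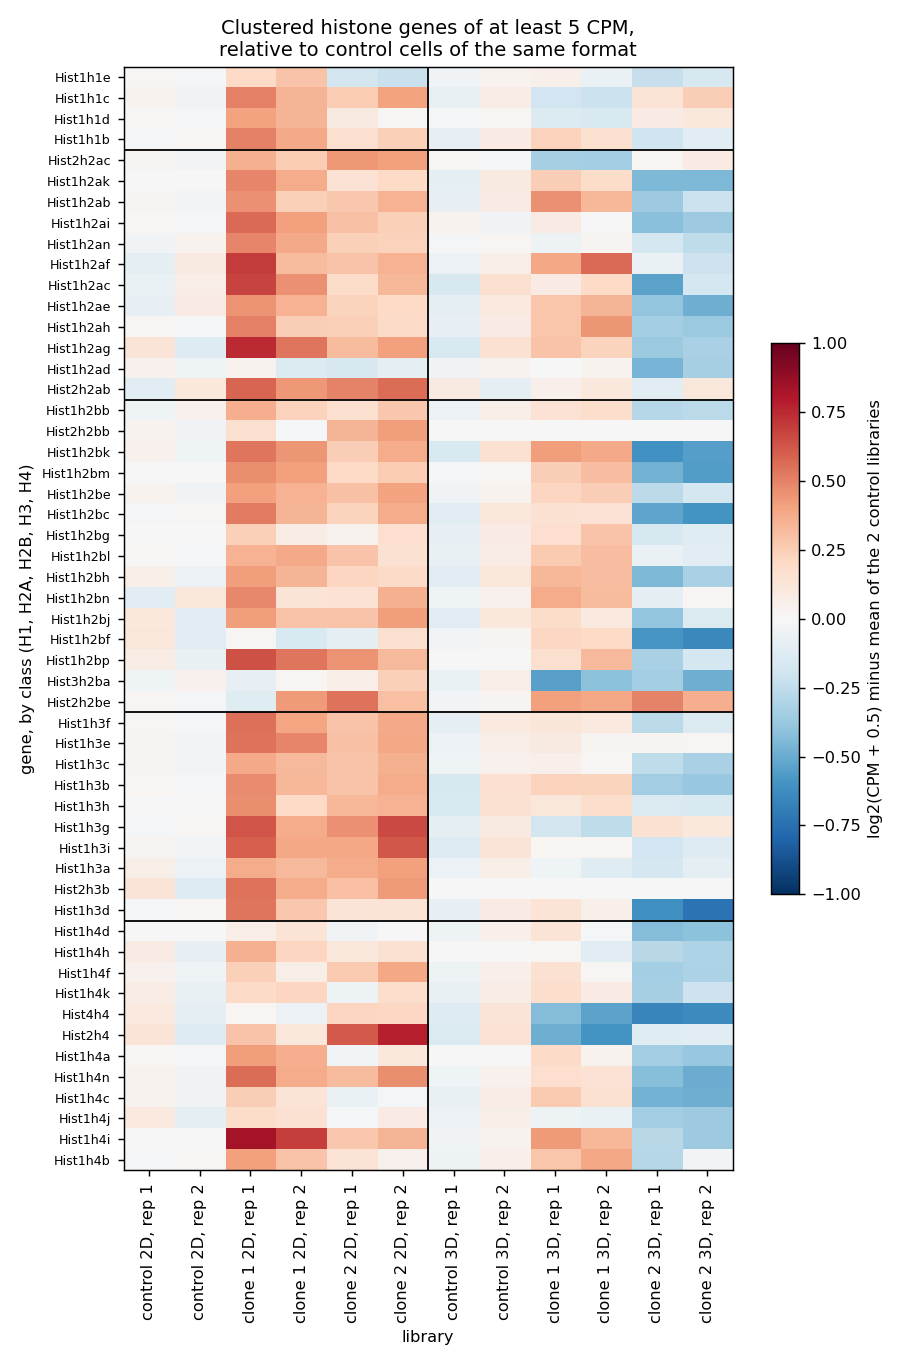
Log2(CPM + 0.5) of each histone gene of at least 5 CPM (rows, by class) in each library (columns), relative to the mean of the 2 control libraries of the same format. Red runs through most rows of the 2D clone libraries, blue through most rows of clone 2 in 3D, and Hist2h2bb and Hist2h3b have no colour in 3D because they are at 0 there in all libraries.

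Whether the clone difference itself changed with format was tested as an interaction, the difference in 3D minus that in 2D. For clone 1 it was negative in 18 of 63 histone genes and positive in 0, against 3.46% and 3.57% of all genes (7.03% either way), with medians of -0.21 and 0.00. At an unadjusted p under 0.05 the counts were 26 and 0, and DESeq2 gave 16 and 0. The count was 9 without control replicate 2 in 3D and 7 without clone 1 replicate 2 in 3D. Among all genes called, the share with a positive interaction was 50.8%, and it was 65.1% after Gm26917 and Gm42418 were removed and 60.2% under size factors from DESeq2. Hist2h4 (-0.76 ± 0.13), Hist1h3g (-0.73 ± 0.11) and Hist2h2ac (-0.64 ± 0.07) had the largest interactions in clone 1. In each of these 3, clone 1 was above control in 2D and below it in 3D, though not each of those 6 differences passed the test by itself. By class, 3 of 5 H1 genes, 3 of 17 H2A, 0 of 16 H2B, 6 of 12 H3 and 6 of 13 H4 genes had a negative interaction.

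For clone 2 the interaction was negative in 41 of 63 histone genes and positive in 1, against 14.8% and 7.38% of all genes (22.2% either way). The medians were -0.50 over the histone genes and -0.06 over all genes. Among all genes called, 33.3% were positive, and 43.7% were without Gm26917 and Gm42418. By class, 1 of 5 H1 genes, 10 of 17 H2A, 10 of 16 H2B, 9 of 12 H3 and 11 of 13 H4 genes were negative. The H2B genes Hist1h2bk (-0.90 ± 0.10) and Hist1h2bc (-0.87 ± 0.10) and the H4 gene Hist4h4 (-0.87 ± 0.10) led. Hist1h2bc was at 245 and 250 CPM in control and 289 and 320 in clone 2 in 2D, but at 73.6 and 86.1 in control and 54.97 and 52.3 in clone 2 in 3D. Its libraries did not overlap in either format, with clone 2 on top in 2D and control on top in 3D. The positive one was Hist3h2a (0.87 ± 0.30, adjusted p = 0.039), whose adjusted p ran from 0.0226 to 0.178 over its alternatives, 11 of which lost the call.

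The format gave far larger differences. In control cells 2 of 63 histone genes were higher in 3D and 57 lower, against 41.6% and 35.5% of all genes (77.1% either way), with medians of -1.46 and 0.10. In clone 1 the counts were 2 and 58 (39.7% and 35.3% of all genes, 75% either way, median -1.65), and in clone 2 they were 0 and 57 (42.4% and 37% of all genes, 79.4% either way, median -1.92). In clone 2 edgeR had 0 higher at an unadjusted p under 0.05 too, and DESeq2 had 0 higher and 54 lower. These 3 medians were the same with genes at 0 in 3D put at the smallest fold their counts allow. Those genes stay below the median at that fold, so this could not move it. Without them the medians were -1.35, -1.55 and -1.85 in control, clone 1 and clone 2. Summed over class, 2D over 3D in control was 1.48-fold for H1, 2.90-fold for H2A, 4.18-fold for H2B, 1.87-fold for H3 and 2.57-fold for H4. In control, clone 1 and clone 2 the ratios were 1.48, 1.96 and 1.61-fold for H1, the smallest, and 4.18, 4.40 and 6.31-fold for H2B, the largest. The 43 genes whose exons overlap no other gene hold no H2A gene and lack Hist1h1e, of which 25.7% overlaps same-strand genes. Among the classes left there, the H2B ratios were the largest, at 3.34, 3.62 and 4.95-fold. There the H1 ratios were 1.80, 2.50 and 1.96-fold and those of H3 1.73, 2.24 and 2.47-fold. H3 and not H1 was thus smallest in control and clone 1. The ratios for these 43 genes together were 2.24, 2.75 and 3.02-fold. In 3D, Gm26917 and Gm42418 together took 12.4 to 16.9% of the counts, against 1.86 to 2.15% in 2D, and the part of this in the format difference was not tested.

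Within the format comparison the members spread widely. Hist1h1e hardly differed in control, at 612 and 604 CPM in 2D and 575 and 606 in 3D, a change of -0.04 ± 0.05 (adjusted p = 0.466). Hist1h3d rose in 3D, from 50.5 and 52.1 CPM to 71.0 and 79.8, a change of 0.56 ± 0.08 (adjusted p = 5.9e-07). In clone 1 its change was 0.23 ± 0.08 and in clone 2 -0.26 ± 0.08, and the clone 1 call was lost without replicate 2 in 2D (adjusted p = 0.24) or replicate 1 in 3D (0.0857). The clone 2 call was lost without replicate 2 in 3D (0.117) and with DESeq2 (0.0668), and with chromosomes centred the value was 0.10 (0.24). Hist1h2af was the other riser in control, by 0.34 ± 0.10, from 37.0 and 42.0 CPM to 47.9 and 52.0, and did not pass without replicate 1 of the 2D control (adjusted p = 0.0634). In clone 1 the change of Hist1h2af was 0.29 ± 0.10, lost without replicate 2 in 2D (0.258) or in 3D (0.11). Hist1h2ab, another H2A gene, had a change of -2.74 ± 0.08, from 203 and 196 CPM to 28.0 and 31.6. Hist1h4i fell by 2.40 ± 0.07, and Hist4h4 by 2.08 ± 0.07, from 353 and 309 CPM to 71.3 and 85.5. In control cells the 18 tested genes whose models run at least 200 bases past the stem-loop had a median of -1.02, and the 27 whose models end sooner had -1.78. These sets differ in class and overlap too. The first holds Hist1h1c, Hist1h1d and Hist1h1e, and the second Hist1h4b, Hist2h2aa1 and Hist2h2aa2, covered 56.2%, 100% and 100% on the opposite strand. The part of class and coverage in this split was not tested.

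Some histone genes were present on plastic and at 0 counts in each of the 6 collagen libraries. Hist2h2bb (chromosome 3, 96269752 to 96270132, plus strand), an H2B gene, had 2D levels of 443 and 423 CPM (control), 484 and 431 (clone 1) and 549 and 579 (clone 2). With 12615 control counts in 2D and 0 in 3D, it was at least 7988-fold lower, against a floor of 3 counts over the 2 control libraries. Hist2h3b (chromosome 3, 96268654 to 96269141, plus strand), an H3 gene, was at 141 to 224 CPM in the 2D libraries and at least 2849-fold lower in control in 3D, from 4499 counts. Hist2h2aa1 and Hist2h2aa2, near-identical H2A genes with 18 and 44 control counts in 2D, were at 0 in 3D too, at least 11.4-fold and 27.9-fold lower. Floors cover counting error only.

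These 4 genes share a feature of the annotation: their exons lie 100% within exons of a gene on the opposite strand. For Hist2h2bb and Hist2h3b that gene is Gm20628, which was at 15.6 to 33.8 CPM in 2D and 0.949 to 2.44 in 3D. Opposite Hist2h2aa2 lies, among others, Gm20632, at 1.04 to 2.93 CPM in 2D and 2.22 to 4.82 in 3D. Opposite Hist2h2aa1 lies, among others, Gm20633, at 0.161 to 1.69 CPM in 2D and 0.911 to 4.34 in 3D. Hist1h4b, 56.2% covered by 4930558J22Rik, fell from 193 and 196 CPM in control in 2D to 2.12 and 2.29 in 3D, a change of -6.46 ± 0.10 (adjusted p = 2.3e-27). Hist2h2ab, 68.2% covered by Gm15444, fell by 3.58 ± 0.15, from 26.3 and 30.4 CPM to 2.55 and 2.19. Among histone genes of at least 5 CPM that are covered under 50%, the largest fall in control was that of the H2A gene Hist1h2ai, at -3.03 with 35.1% covered.

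Over the genes that are not histone members and have no same-strand overlap, the median 3D change in control was 0.11 for 8157 genes with no opposite-strand coverage and 0.06 for 151 genes covered over 50% to 80%, the range that holds Hist1h4b and Hist2h2ab. Of those 151 genes, 17.2% were more than 4-fold lower, against 1.46% of the uncovered genes. For 61 genes covered over 80% it was -3.43, and 63.9% of them were more than 4-fold lower. Of all genes, 5 had at least 5 CPM in 2D and 0 counts in 3D: Hist2h2bb, Hist2h3b, Gm10260, Pdcd2 and AY036118, the last 3 named after their values were seen. The strand setting of the counting is not given in the sources used here for either table, and its part in these values was not tested. Leaving out genes with any overlap, 37 of 40 histone genes were still lower in 3D in control and 1 higher, with a median of -1.20. Of all genes, 35.5% were lower and 41.6% higher in that comparison.

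**Figure D4:**
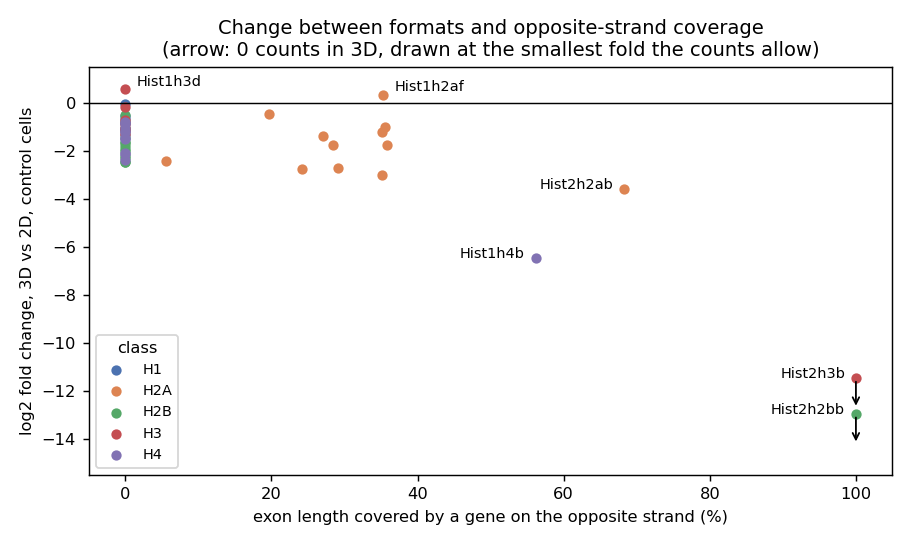
Log2 fold change of 3D against 2D in control cells (vertical axis) for each histone gene of at least 5 CPM, by the share of its exon length covered by a gene on the opposite strand (horizontal axis), coloured by class. Genes with no coverage reach from above 0 for Hist1h3d to -2.48 for Hist1h2be, and the 2 genes at 100% are drawn with arrows at the smallest falls their counts allow.

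The Hist2, Hist3 and Hist4 genes not yet described were low. Hist2h2be, an H2B gene with no near-copy, was at 3.90 to 8.57 CPM over all libraries and was called in the format comparison in control (-0.52 ± 0.20, adjusted p = 0.022) and clone 2 (-0.51 ± 0.18, 0.012). Both calls were lost with DESeq2 (adjusted p = 0.0655 and 0.0728), the first without any of the 4 libraries compared (up to 0.108) and the second without clone 2 replicate 1 in 2D (0.145) or replicate 2 in 3D (0.105). Hist2h3c1 and Hist2h3c2, H3 genes at 1.61 to 3.78 and 1.46 to 3.29 CPM, had changes in 3D in control of 0.07 (adjusted p = 0.818) and -0.62 (0.0926). The exons of Hist2h3c1 lie wholly within those of the same-strand gene Gm20634. Hist3h2ba fell in 3D by 1.46 ± 0.18 in control.

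Genes outside the clusters that make, carry or replace these histones give the setting. In clone 1 in 2D the list of histone mRNA synthesis and 3′ end processing, which holds the S-phase histone gene activator Npat, had 0 genes higher and 7 lower of 17, where 19.7% of all genes were higher and 19.9% lower. Eri1, an exonuclease that acts at the histone stem-loop, fell by 0.51 ± 0.06, Ncbp2, a subunit of the cap-binding complex, by 0.74 ± 0.08, and Npat by 0.47 ± 0.07. Casp8ap2 (FLASH), needed for histone 3′ end processing, fell by 0.44 ± 0.08. Genes of G1/S and DNA replication were 9 higher and 10 lower of 30 in clone 1 in 2D (39.6% of all genes were called), with Pola1, a subunit of DNA polymerase alpha, at 1.04 ± 0.06 and Tk1, thymidine kinase, at -0.61 ± 0.05. Genes of G2/M were 11 higher and 3 lower of 20 there, with the proliferation marker Mki67 at 0.55 ± 0.06. Among replacement histone variants, made outside S phase too, Cenpa, the centromeric H3, rose by 0.46 ± 0.05, 1 of 9 genes higher and 1 lower.

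In clone 2 in 2D, where 18.8% of all genes were higher and 14.9% lower, the G1/S list had 10 higher and 5 lower of 30 and the G2/M list 13 higher and 0 lower of 20. The processing list had 3 higher and 1 lower of 17, but 1 and 4 with no filter on low counts and 1 and 4 after Gm26917 and Gm42418 were removed, so its direction depended on the setting. Replacement variants had 4 higher and 0 lower of 9 there, with H2afz, the H2A.Z gene, at 0.33 ± 0.06. The histone chaperones and assembly factors had 6 higher and 2 lower of 14, with the H3 and H4 binding Rbbp4 at 0.46 ± 0.05. In clone 1 in 3D, where 22% of all genes were higher and 23% lower, the G1/S list had 14 higher and 4 lower of 30 and the G2/M list 15 and 3 of 20. In clone 2 in 3D, where 11.8% of all genes were higher and 17.4% lower, the G1/S list had 0 higher and 20 lower of 30, with the replicative helicase genes Mcm3 at -0.95 ± 0.05, Mcm6 at -0.92 ± 0.05 and Mcm4 at -0.57 ± 0.05. The G2/M list had 0 higher and 17 lower of 20, with the mitotic kinase Plk1 at -0.49 ± 0.06. The chaperone list had 0 higher and 7 lower of 14, with Chaf1a (-0.49 ± 0.07) and Chaf1b (-0.53 ± 0.07), 2 of the subunits of chromatin assembly factor 1.

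Between the formats in control cells the same lists were mostly lower in 3D. G1/S genes had 3 higher and 25 lower of 30 (median -0.73), G2/M genes 1 and 18 of 20 (-0.70), processing genes 2 and 14 of 17 (-0.59) and chaperones 2 and 10 of 14 (-0.62), each against the 35.5% of all genes that were lower. Slbp, the stem-loop binding protein gene, fell by 1.26 ± 0.06 and Nasp, a chaperone of H1, H3 and H4, by 1.18 ± 0.05. E2f1, 1 of the 3 higher genes of the G1/S list, rose by 2.15 ± 0.10. Replacement variants were 3 higher and 6 lower of 9, with H2afx at -1.15 ± 0.06 and H1f0, a linker histone of resting cells, at 0.67 ± 0.05. Cell cycle inhibitors were 6 higher and 2 lower of 10, where 41.6% of all genes were higher and 35.5% lower (77.1% either way). Of that list Cdkn1a, the p21 gene, was at 6.16 ± 0.20, Btg1 at 1.78 ± 0.05 and Ccng1 at -1.10 ± 0.07. The medians of these lists lie above the -1.46 of the histone genes, and no test of that difference was made.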

How the data were processed

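The deposited values are raw counts per gene symbol, in 1 table for 2D and 1 for 3D. Per the submitters' processing notes, the authors used mm10, FastQC 0.11.9, STAR 2.7.9a, featureCounts, R 4.1.1 and Cell Ranger 3.0.0, with no role, strand setting or treatment of multiply mapped reads given. Per the labels' protocols, libraries were TruSeq Stranded mRNA. The tables were joined by symbol, filtered with filterByExpr (13763 genes, 63 histone genes) and scaled by TMM, and all 12 libraries were fitted with a mean per group by edgeR 4.0.16's robust quasi-likelihood method (limma 3.58.1, R 4.3.3; 6 residual degrees of freedom). The biological coefficient of variation was 4.51%. Every adjusted p is edgeR's, two-sided and adjusted after Benjamini and Hochberg across each comparison's tested genes, and log2 changes are given ± SE. CPM values are TMM-scaled, and sums over a class have no test.

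Positions, overlaps, 50-base shared words and stem-loops are from GENCODE M21, promoters from RefSeq. Scripts were tested on simulated data. The libraries of a group differed beyond counting noise (chi-square over degrees of freedom 3.51 to 9.51), so none was counted as a duplicate. Alternatives were DESeq2 1.42.0's size factors and Wald test, no filter and a filter of 10 counts, each library left out, a replicate block, 1 format alone, no Gm26917 and Gm42418, centred chromosomes, near-copies summed and, chosen after seeing the data, genes without overlap. The histone genes and the 10 context lists were chosen with earlier results of these data known. Named genes are the 3 of highest mean CPM per class, the 3 largest called changes each way per comparison among those of at least 5 CPM, each gene outside chromosome 13, and up to 4 per context list by smallest p, named in part. Genes described beyond this rule, such as Hist1h2ai, Hist1h1t, Hist1h2ba or Hist1h1a, were chosen after their values were seen.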

Additional observations from a re-analysis of the deposited data

Results flagged for a closer look

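The difference between a clone and control differed between the formats in 18 of 63 histone genes for clone 1 and in 42 of 63 for clone 2. Of all genes, 7.03% and 22.2% were called, each by the interaction test of edgeR. In clone 1 the interaction was -0.76 for Hist2h4, -0.73 for Hist1h3g and -0.64 for Hist2h2ac on the log2 scale. In clone 2 it was -0.90 for Hist1h2bk, and -0.87 for both Hist1h2bc and Hist4h4. These 6 calls held with DESeq2's size factors and test, both other filters, each library left out, the replicate block, no Gm26917 and Gm42418, and centred chromosomes. A fit of 1 format alone gives no interaction, and the summed near-copies and the genes without overlap were run for counts only. The interactions of both clones use the same 4 control libraries.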

How the results depend on the processing

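Of 386 results for single named genes past the threshold, 310 held under every setting fixed at the start that gave them a value. Of 7555 alternative values, 7328 kept the call, 221 lost it and 6 turned sign. The 6, all with chromosomes centred, were Hist4h4 in clone 2 against clone 1 in 2D (-0.059, adjusted p = 0.551), Etv4 in clone 2 against clone 1 in 3D (-0.15, 0.0348), Hist1h3e in 3D against 2D in control (0.028, 0.66), Hist1h3d in 3D against 2D in clone 2 (0.10, 0.24), H3f3b in clone 1 in 2D (0.14, 0.0514) and H2afv in clone 1 in 3D (0.12, 0.377). The cause was not tested.

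With near-copies summed, which leaves 27 rows to test, the counts of histone genes called were 17 and 20 for clones 1 and 2 against control in 2D, 15 and 17 in 3D, and 13 and 19 for clone 2 against clone 1 in 2D and 3D. They were 26, 26 and 25 for 3D against 2D in control, clone 1 and clone 2, and 9 and 17 for the interactions of clones 1 and 2. With the 40 genes without overlap, the counts were 29 and 25 in 2D, 23 for clone 2 in 3D, 14 for clone 2 against clone 1 in 2D, and 38 for 3D against 2D in control and in clone 1. Both fall by construction, since fewer rows are tested.

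Leaving out 1 library gave 37 to 46 and 29 to 40 calls for clones 1 and 2 in 2D, 12 to 26 and 22 to 36 in 3D, and 14 to 27 and 39 to 46 for clone 2 against clone 1 in 2D and 3D. The ranges were 56 to 60, 58 to 60 and 54 to 57 for 3D against 2D in control, clone 1 and clone 2, and 7 to 21 and 37 to 43 for the interactions. The lone sample of a group is then assumed to vary like the others.

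Replicate numbers are shared by the groups, but libraries of the same number did not deviate together (correlations of -0.153 to 0.171 over 15 pairs of groups), so they share only a number. With a replicate block the counts were 44 and 37 for clones 1 and 2 in 2D, 24 and 32 in 3D, 22 and 45 for clone 2 against clone 1, 59, 60 and 57 for the format, and 17 and 41 for the interactions.

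The direction of context lists turned in places. Replacement variants in clone 1 in 3D (1 higher, 4 lower) had 2 and 1 without clone 1 replicate 2 in 3D (3 calls) and 3 and 1 with chromosomes centred (4). The processing list in clone 2 in 2D (3 higher, 1 lower) had 1 and 4 with no filter (5 calls), 1 and 3 with the filter of 10 counts (4), 1 and 2 without clone 1 replicate 2 in 3D (3), 1 and 4 once Gm26917 and Gm42418 were removed (5) and 2 and 3 with chromosomes centred (5).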
